A study of Homo sapiens with 8 samples.

Results

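Genes that are switched on by interferon, together with genes whose products sense foreign RNA, were followed in HCT116 cells, which come from a human colorectal carcinoma, in libraries made after siRNA transfection. The set held 38 of the 20030 listed genes and was chosen by gene symbol. It comprised 9 sensors of double-stranded RNA, 4 transcription factors, 14 antiviral effectors, 9 genes of ISG15 conjugation, ubiquitin transfer and ADP-ribose transfer, and 2 genes of antigen presentation. All 38 symbols were found in each library.

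An siRNA is a short RNA duplex, and long or unmodified duplexes can be taken for viral RNA. In the cytosol, RIG-I (*DDX58*) and MDA5 (*IFIH1*) bind RNA and signal through MAVS and IRF3 to interferon genes, while PKR (*EIF2AK2*) and the OAS enzymes act on translation and RNA decay. Secreted interferon then acts through its receptors and the kinases JAK1 and TYK2, and the resulting complex, which holds STAT2 and IRF9, binds the interferon-stimulated response element in the promoters of interferon-stimulated genes. Most of the 38 genes are classical targets of that complex.

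RNA was extracted with Trizol and sequenced on an Illumina HiSeq instrument in 8 libraries. The control siRNA (siNC) was given to 2 of them, siRNAs against *HHEX*, a homeobox transcription factor (siHHEX), to 3, siRNAs against the genes of the transcriptional coactivators YAP (*YAP1*) and TAZ (*WWTR1*), named siYAP/TAZ, to 2, and siRNAs against *TEAD1* to *TEAD4* (siTEAD1/2/3/4) to 1. The libraries of a knockdown are numbered as their siRNAs are, so that siHHEX 1, 2 and 3, and siYAP/TAZ 1 and 2, differed in siRNA as well. The sample number of siHHEX 3 lies apart from the run of the other libraries. Whether it was prepared separately is not stated, so that its siRNA and any separate handling cannot be told apart. The study's statement on replication is general, and nothing says that these libraries came from separate cultures, so that p values measure only the spread between these samples, which may be technical.

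The siRNAs are shown because they are the RNA that the cells received. Each is written 5′ to 3′ as listed for the study, with 19 bases in lower case and a TT overhang, where the list gives one, in capitals.
siNC: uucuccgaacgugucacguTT
siYAP_1: gacaucuucuggucagaga
siTAZ_1: acguugacuuaggaacuuu
siYAP_2: cuggucagagauacuucuu
siTEAD1/3/4: ugaucaacuucauccacaa
siTEAD2: gccagaugcaguugauucuTT
The 19 bases of siYAP_1 and siYAP_2 were found in transcripts of *YAP1* and of its pseudogene *YAP1P1*, those of siTAZ_1 in *WWTR1*, those of siTEAD1/3/4 in *TEAD1*, *TEAD3* and *TEAD4*, and those of siTEAD2 in *TEAD2*. No transcript held the 19 bases of siNC. The 3 siHHEX duplexes and siTAZ_2 are not shown here.

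Expression is given in FPKM, a fragment count scaled to transcript length and to the mapped fragments of each library. Read counts were not used, so the depth behind a value is unknown. The most common ratio of the lowest values to those of siNC 1 put the relative depth of the other 7 libraries between 0.942 and 1.11. Only ratios near 1 were searched, so that a large difference in depth could not have been found. Between 14042 genes (siHHEX 2) and 15034 genes (siYAP/TAZ 2) were above 0. Changes are differences on the log2(FPKM + 1) scale, which understates the change of low genes. A gene was tested when it reached 1 FPKM in at least 2 libraries, which 10677 of all genes and 27 of the 38 genes did.

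The targeted genes were examined first. *HHEX* was at 8.60 and 9.06 FPKM in siNC and at 3.25, 3.54 and 1.85 FPKM in siHHEX 1, 2 and 3, a fall of 1.37 on the log2 scale (SE 0.22, adjusted p = 0.0054). *YAP1* was at 20.2 and 19.7 FPKM in siNC and at 6.90 and 8.39 FPKM in siYAP/TAZ, with a log2 fold change of -1.28 (SE 0.38) that did not pass the test (adjusted p = 0.0681). It was also low in siHHEX 1 (5.77 FPKM) and siHHEX 3 (6.93 FPKM), but not in siHHEX 2 (17.4 FPKM). Its fall in siHHEX was called (log2 fold change -1.07, adjusted p = 0.0429), but not with the GC and length correction described below (adjusted p = 0.161). *WWTR1* was at 6.80 and 6.72 FPKM in siNC and at 2.64 and 2.58 FPKM in siYAP/TAZ (log2 fold change -1.10, SE 0.20, adjusted p = 0.0156). In the library labelled siTEAD1/2/3/4, *TEAD1* (9.02 FPKM), *TEAD2* (2.73 FPKM) and *TEAD4* (5.56 FPKM) were below both siNC libraries, which held 18.3 and 19.0, 4.10 and 3.47, and 20.3 and 21.3 FPKM. *TEAD3*, at 9.08 FPKM against 7.36 and 6.99 FPKM in siNC, was not lower there, which goes against that library's label for 1 of its 4 targets. In siHHEX, where 32.9% of all tested genes were called, *TEAD1* fell (-1.25, adjusted p = 0.00642) and *TEAD2* rose (0.78, adjusted p = 0.00709). In siYAP/TAZ, where 8.28% were called, *TEAD4* fell (-0.63, adjusted p = 0.025). With the correction *TEAD1* and *TEAD4* were still called (adjusted p = 0.0189 and 0.0110) and *TEAD2* was not (adjusted p = 0.0740).

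The 8 epithelial markers summed to 3374 and 3517 FPKM in siNC, 3119, 3444 and 3660 FPKM in siHHEX, 2032 and 1977 FPKM in siYAP/TAZ and 2717 FPKM in the library labelled siTEAD1/2/3/4. *KRT8* led them at 897 to 1757 FPKM, while the intestinal markers *VIL1* and *CEACAM5* were at most at 0.0335 FPKM. In siYAP/TAZ, *KRT8* and *KRT18* fell (log2 fold changes -0.88 and -1.22, adjusted p = 0.00227 and 0.000861) and none of the other 4 tested rose. In siHHEX, *CDX2* rose (0.42, adjusted p = 0.042) and *EPCAM* (-0.38, adjusted p = 0.029) and *KRT18* (-0.29, adjusted p = 0.0348) fell, of which *KRT18* was still called with the GC and length correction (-0.68, adjusted p = 0.00443). Of the 6 immune markers, *CD68* was the most abundant at 3.52 to 7.33 FPKM and *CLEC4C*, a marker of plasmacytoid dendritic cells, was listed at 0 throughout. The other 5 summed to 0.189 and 0.172 FPKM in siNC, 0.0306, 0.1003 and 1.79 FPKM in siHHEX 1, 2 and 3, 0.865 and 1.401 FPKM in siYAP/TAZ 1 and 2, and 0.488 FPKM in the library labelled siTEAD1/2/3/4. Most of this was *LYZ*, at 1.52 FPKM in siHHEX 3 and 1.25 FPKM in siYAP/TAZ 2 against 0.122 and 0.0982 FPKM in siNC. The 4 fibroblast and endothelial markers other than *COL1A1*, which was at 0.647 to 2.04 FPKM, summed to 0.224 FPKM in siHHEX 3 and 0.444 FPKM in siYAP/TAZ 2 and to at most 0.0603 FPKM elsewhere. In bulk RNA, a change in the share of a cell type and a change of RNA per cell cannot be told apart. The part of these low-level transcripts in the results below was not tested.

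In control cells the 38 genes ran from 0 FPKM in both libraries (*XAF1*) to 151 FPKM. The 2 most abundant were *B2M*, the light chain of class I HLA, at 151 and 142 FPKM, and *ISG15*, the ubiquitin-like protein of the interferon response, at 136 and 149 FPKM. *TRIM25*, the ubiquitin ligase that activates RIG-I, followed at 40.7 and 42.5 FPKM, and *ADAR*, the RNA-editing enzyme, at 28.8 and 30.2 FPKM. These 4 genes were high in all 8 libraries.

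Other interferon-stimulated genes of the set were at the other end. The low level was not shared by all such genes, since *ISG15*, *OAS3*, *IFI6*, *IFI35* and *USP18* were above 1 FPKM in both siNC libraries. *MX1*, a GTPase that blocks viral replication, was at 0.0198 and 0.0272 FPKM in siNC and reached at most 0.103 FPKM, in siHHEX 3. *OAS2* stayed at or under 0.0691 FPKM, *IFI44* at or under 0.0799 FPKM, *IFI44L* at or under 0.0627 FPKM and *XAF1* at or under 0.0264 FPKM. *IFIT1*, *IFIT2* and *IFIT3*, which bind viral RNA and, like the OAS genes, share sequence so that reads may be split between them, were at 0.161 to 0.446 FPKM in siNC, and *IFIT1* was the only untested member to reach 1 FPKM in any library, at 1.45 FPKM in siYAP/TAZ 2. Together with *DHX58*, *OAS1* and *ISG20*, these made up the 11 untested genes, which summed to between 0.995 FPKM (siHHEX 2) and 3.34 FPKM (siYAP/TAZ 2).

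**Figure D1:**
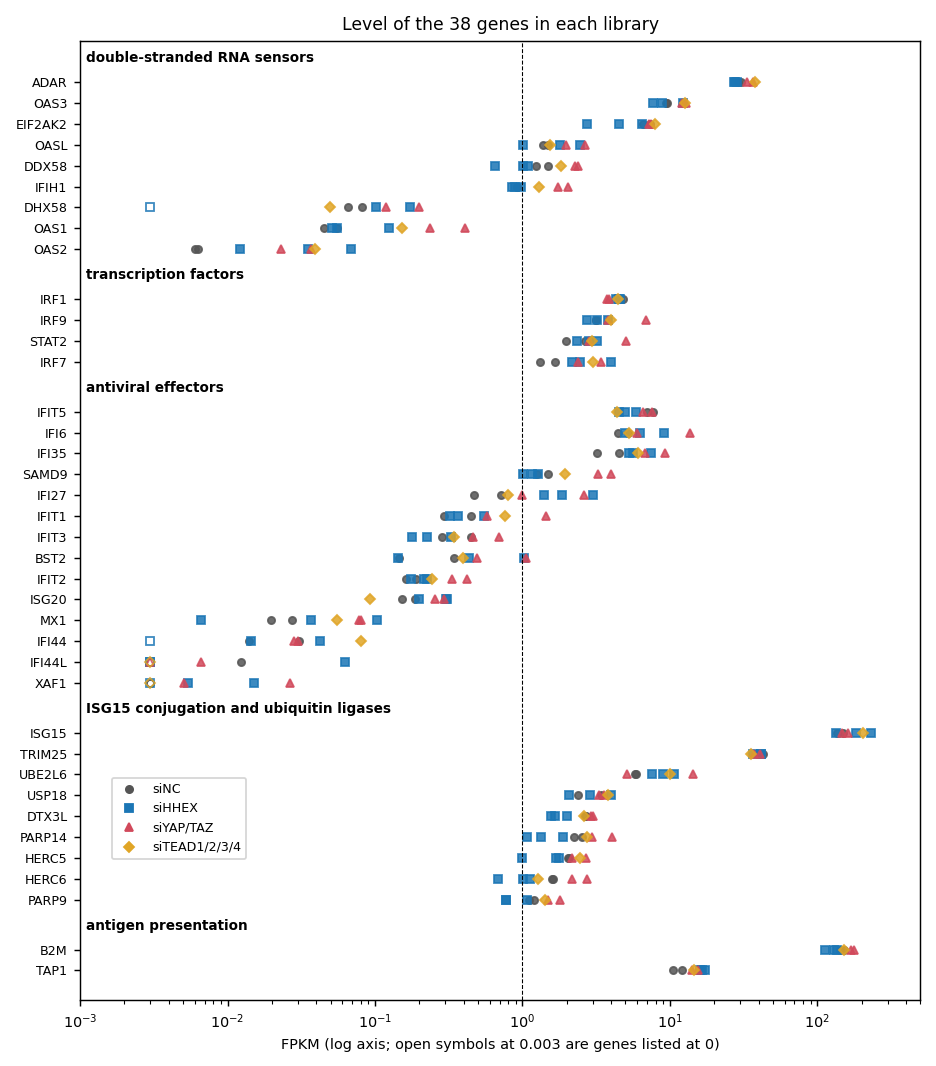
FPKM of the 38 genes in each of the 8 libraries on a log axis, grouped by role and sorted by the siNC mean, with 1 symbol per library, open symbols for values of 0 and a dashed line at 1 FPKM. *ISG15*, *B2M*, *TRIM25* and *ADAR* were at 27.4 FPKM or more in all libraries, while *MX1*, *OAS2*, *IFI44*, *IFI44L* and *XAF1* stayed at or under 0.103 FPKM.

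The tested genes fell unevenly over the roles. They comprised 6 of 9 sensors, 4 of 4 transcription factors, 6 of 14 antiviral effectors, 9 of 9 genes of the ISG15 and ubiquitin group and 2 of 2 genes of antigen presentation. *IFIH1*, *IFI27* and *BST2* did not reach 1 FPKM in either siNC library and were tested because they did so in knockdown libraries, so that their being tested depended on where they were high. They are described but are no evidence of a direction by their presence among the 27.

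In siYAP/TAZ, 3 of the 27 genes rose against siNC and 0 fell. Over the 27 genes the median log2 fold change was 0.395, against 0.0816 for all tested genes. This median includes *IFIH1* (0.58), *IFI27* (0.75) and *BST2* (0.50), which lay above it and were tested only through knockdown libraries. By the limma test with Benjamini-Hochberg adjustment over all tested genes, *SAMD9*, *IFIH1* and *IFI35* rose, which is 11.1% of the 27 genes, against a background of 6.15% of all tested genes called higher. None of the 27 was called lower, where the background was 2.13% (8.28% in either direction). At an unadjusted p under 0.05, 11 of 27 (40.7%) were higher and 0 lower, against 19.4% and 7.85% of all tested genes. Since *IFIH1*, *IFI27* and *BST2* were tested through knockdown libraries, the counts were repeated over genes at 1 FPKM or more in a siNC library. Of the 24 members left, 2 (8.33%) were called higher, against 5.32% of 10160 genes, and 9 (37.5%) were higher at an unadjusted p under 0.05, against 17.5%.

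*SAMD9*, a restriction factor for poxviruses encoded at chr7:93099513-93118023 (minus strand, GRCh38), was at 1.25 and 1.499 FPKM in siNC and at 3.23 and 4.00 FPKM in siYAP/TAZ. It was at 1.01, 1.15 and 1.28 FPKM in siHHEX and at 1.94 FPKM in the library labelled siTEAD1/2/3/4. Both siYAP/TAZ libraries thus stood above every other library. The mean rose from 1.37 ± 0.176 FPKM (SD, n = 2) to 3.61 ± 0.540 FPKM (SD, n = 2), a ratio of 2.63, and the log2 fold change was 0.96 (SE 0.15, adjusted p = 0.00996).

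*IFIH1*, which encodes the sensor MDA5 at chr2:162267074-162318684 (minus strand), was at 0.925 and 0.924 FPKM in siNC and at 2.04 and 1.74 FPKM in siYAP/TAZ. The siHHEX libraries, at 0.853, 0.977 and 0.891 FPKM, lay around the siNC values, and the library labelled siTEAD1/2/3/4 was at 1.29 FPKM. The 2 knockdown libraries of *YAP1* and *WWTR1* were again the highest of the 8. The ratio of means was 2.04 (the log2 fold change was 0.58, SE 0.13, adjusted p = 0.0301). *IFIH1* passed the filter only through both siYAP/TAZ libraries and the library labelled siTEAD1/2/3/4, so that its being tested depended on where it was high. In the fit with no filter its adjusted p was 0.0404.

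*IFI35*, which encodes a cytosolic partner of NMI at chr17:43006740-43014456 (plus strand), was at 3.197 and 4.52 FPKM in siNC and at 6.82 and 9.24 FPKM in siYAP/TAZ. It was higher than siNC in every knockdown library, at 5.64, 5.31 and 7.44 FPKM in siHHEX and 6.11 FPKM in the library labelled siTEAD1/2/3/4. The ratio of means was 2.08 (log2 fold change 0.90, SE 0.21, adjusted p = 0.0335). The siNC libraries differed from each other by more for this gene than for *SAMD9* or *IFIH1*.

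The calls depended on the number of siNC libraries. With either siNC library left out, the remaining one was assumed to vary like the other groups, and almost no gene passed, 22 over all genes without siNC 1 and 15 without siNC 2, in place of 884. None of the 27 was then called by limma, and 5 and 6 were higher at an unadjusted p under 0.05 (10.7 and 10.6% of all tested genes). The fold changes were of similar size, with 0.88 and 1.03 for *SAMD9*, 0.59 and 0.58 for *IFIH1* and 0.70 and 1.09 for *IFI35*. Without siYAP/TAZ 2 the count was also 0 (0.478% of all genes were called higher), with 5 at an unadjusted p under 0.05 (12.6% of all genes). Without siYAP/TAZ 1 it was 7 (6.05% of all genes), with *IFI6*, *IRF9*, *STAT2*, *UBE2L6* and *IFI27* joining *SAMD9* and *IFI35* as *IFIH1* dropped out (adjusted p = 0.0708). Scaling the libraries to a common median left *SAMD9* alone (adjusted p = 0.0146 for *SAMD9*, 0.0543 for *IFIH1* and 0.0528 for *IFI35*) and changed the split of all calls from 657 higher and 227 lower to 350 higher and 337 lower.

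With the called genes included, the levels in siYAP/TAZ did not overlap those in siNC for 22 of 27 genes. They were above siNC for 20 (74.1%, against 42.9% of all tested genes) and below for 2 (7.41%, against 24.8%). Over the genes at 1 FPKM or more in a siNC library the counts were 17 of 24 above (70.8%, against 40.9%) and 2 below (8.33%, against 26.0%). The 2 genes below were *IRF1*, a transcription factor that also acts without interferon, at 3.89 and 3.74 FPKM against 4.56 and 4.82 FPKM in siNC, and *TRIM25*, at 40.6 and 37.3 FPKM against 40.7 and 42.5 FPKM in siNC. Neither passed the test.

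Among the sensors, *DDX58* (RIG-I) was at 1.49 and 1.23 FPKM in siNC and at 2.26 and 2.39 FPKM in siYAP/TAZ, with a log2 fold change of 0.50 (SE 0.15) that did not pass the test (adjusted p = 0.0760). *OAS3* was at 9.36 and 9.59 FPKM in siNC and at 12.9 and 12.1 FPKM in siYAP/TAZ. *ADAR*, the most abundant sensor, was at 28.8 and 30.2 FPKM in siNC, 28.7, 27.4 and 27.8 FPKM in siHHEX, 36.6 and 33.1 FPKM in siYAP/TAZ and 37.95 FPKM in the library labelled siTEAD1/2/3/4. All 3 had siYAP/TAZ values above both siNC values. For *EIF2AK2* (PKR) the difference was small, with 7.46 and 7.26 FPKM in siYAP/TAZ and 6.52 and 7.32 FPKM in siNC, and the groups overlapped.

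The untested genes were low in siYAP/TAZ as well. *OAS1*, which makes the messenger that activates RNase L, was at 0.0549 and 0.0452 FPKM in siNC, 0.0514, 0.0550 and 0.124 FPKM in siHHEX, 0.411 and 0.236 FPKM in siYAP/TAZ and 0.151 FPKM in the library labelled siTEAD1/2/3/4. *IFIT1* was at 0.295 and 0.446 FPKM in siNC, 0.322, 0.363 and 0.545 FPKM in siHHEX, 0.575 and 1.45 FPKM in siYAP/TAZ and 0.763 FPKM in the library labelled siTEAD1/2/3/4. Both siYAP/TAZ values were above every siNC and siHHEX value for these genes. *DHX58*, the third RIG-I-like receptor, stayed between 0 and 0.200 FPKM, and *ISG20*, a nuclease, between 0.0929 and 0.309 FPKM. With the filter on low values taken off, limma called none of the 11 in siYAP/TAZ against siNC, where it called *SAMD9* and *IFIH1*, and 3 of the 11 were higher at an unadjusted p under 0.05, as were 18.8% of all genes in that fit (*IFIT1*, *IFIT2* and *OAS1*, with adjusted p = 0.184, 0.0506 and 0.0564). In the same fit *IFIT2*, *IFIT3* and *OAS1* were called lower in siHHEX than in siYAP/TAZ (adjusted p = 0.0231, 0.0401 and 0.0239), as were 16.2% of all genes.

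The transcription factors that bind interferon-stimulated promoters were uneven between the 2 siYAP/TAZ libraries. *IRF9*, the DNA-binding subunit of the complex with STAT2, was at 3.17 and 3.16 FPKM in siNC, 3.83 FPKM in siYAP/TAZ 1 and 6.91 FPKM in siYAP/TAZ 2. *STAT2* was at 2.66 and 1.99 FPKM in siNC, 2.83 FPKM in siYAP/TAZ 1 and 5.01 FPKM in siYAP/TAZ 2. *IRF7*, the master regulator of interferon-alpha genes, was at 1.32 and 1.66 FPKM in siNC and at 2.39 and 3.40 FPKM in siYAP/TAZ. In each case siYAP/TAZ 2 was the higher library, and none of the 3 passed the adjusted test (adjusted p = 0.136, 0.154 and 0.107).

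siYAP/TAZ 2 also held the 5 genes of the set that were past 2-fold above the siNC mean in a siYAP/TAZ library, 18.5% of the 27 against a background of 2.7%. The count was 3 with median scaling, 3 with the GC and length correction and 9 with a pseudocount of 0.1, settings for which the share of all genes is not given here. The 5 included *IFI6*, a mitochondrial and endoplasmic reticulum protein (log2 change 1.35), *IFI27*, its relative (1.18), and *UBE2L6*, the E2 enzyme of ISG15 (1.16). The others of the 5 were *IFI35* (1.09) and *SAMD9* (1.07). *IFI27* was tested only through knockdown libraries, siYAP/TAZ 2 among them, so that its place in this count is no evidence of a direction. *IFI6* was at 5.21 and 4.43 FPKM in siNC, 9.14, 4.97 and 6.28 FPKM in siHHEX, 6.001 FPKM in siYAP/TAZ 1, 13.8 FPKM in siYAP/TAZ 2 and 5.26 FPKM in the library labelled siTEAD1/2/3/4. *UBE2L6* was at 5.78 and 5.92 FPKM in siNC and at 5.13 FPKM in siYAP/TAZ 1 against 14.3 FPKM in siYAP/TAZ 2. In siHHEX 1, 2 and 3 it was at 9.05, 10.7 and 7.52 FPKM. For *UBE2L6* the 2 siYAP/TAZ libraries thus lay on either side of siNC. None of the 27 genes was past 2-fold in siYAP/TAZ 1, where the background was 1.08% higher and 0.496% lower, and none was past 2-fold lower in siYAP/TAZ 2 (background 0.796%). Past 1.5-fold, 4 genes were higher in siYAP/TAZ 1 (14.8%, against 6.58%) and 9 in siYAP/TAZ 2 (33.3%, against 12.2%), and none was lower (against 2.13% and 4.23%). These counts too include genes tested only through knockdown libraries, *IFIH1* in siYAP/TAZ 1 and *IFI27* and *BST2* in siYAP/TAZ 2. Of these libraries, siYAP/TAZ 2 also had the more genes above 0 and the more *LYZ*, fibroblast and endothelial transcripts, and the part of these in its higher values was not tested.

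**Figure D2:**
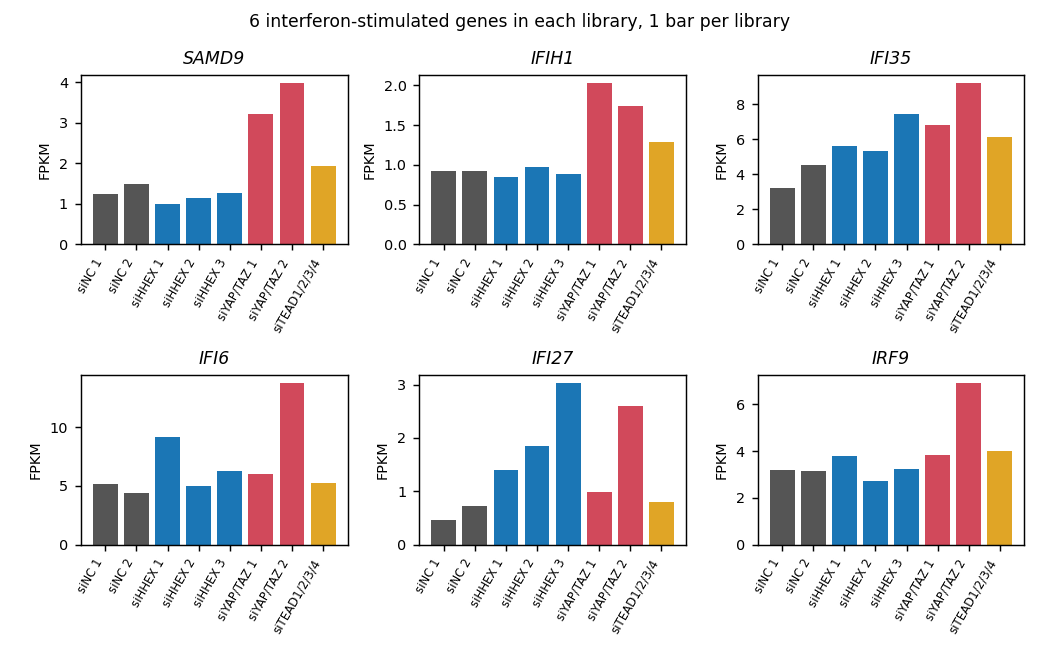
FPKM of 6 interferon-stimulated genes in each library, with 1 bar per library on axes that start at 0. *SAMD9* and *IFIH1* were highest in both siYAP/TAZ libraries, while *IFI6* and *IRF9* stood out in siYAP/TAZ 2 (13.8 and 6.91 FPKM), *IFI27* in siHHEX 3 and siYAP/TAZ 2, and *IFI35* was above siNC in all knockdown libraries.

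The promoters of the set were searched for the core of the interferon-stimulated response element, because it is the site that the complex of STAT2 and IRF9 binds. The letters were TTTCNNTTTC or GAAANNGAAA, the same motif on either strand, in the 250 bases before and 50 bases after each RefSeq start (GRCh38.p14). They were found for 21 of the 32 genes of the set in the RefSeq table (65.6%), against 3.57% of 35116 promoters and 4.38% of 27305 genes overall. Windows of 30 bases, 1 match per gene, are shown for genes on which the results turn, with the motif in capitals, on the strand of the gene. Matches can overlap, as they do in *ISG15*, where a further match shares bases with the one shown.
SAMD9: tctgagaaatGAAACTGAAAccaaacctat
IFIH1: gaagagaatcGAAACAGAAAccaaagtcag
IFI6: ggagagagggGAAAATGAAActctgcagag
ISG15: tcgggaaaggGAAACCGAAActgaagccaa
IFIT1: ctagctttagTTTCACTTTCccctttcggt
DTX3L: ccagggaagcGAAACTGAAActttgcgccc
The *SAMD9* window is chr7:93118096-93118125 and that of *IFIH1* chr2:162318686-162318715, both on the minus strand and outside any annotated transcript. The *IFI6* window, chr1:27672329-27672358 (minus strand), lies in an intron of a neighbouring gene annotated without a symbol, that of *ISG15*, chr1:1013380-1013409 (plus strand), in an intron of a longer *ISG15* transcript, and that of *IFIT1*, chr10:89392497-89392526 (plus strand), in an intron of a *LIPA* transcript. The *DTX3L* window, chr3:122564322-122564351 (plus strand), overlaps an exon of *DTX3L* and an intron of *PARP9*, which starts in the opposite direction, and the same window read on the other strand is that of *PARP9*. The motif did not separate the called genes from the others. It was found for *SAMD9* and *IFIH1* but not for *IFI35*, and also for *MX1*, *IFI44* and *IFI44L*, which stayed near 0.

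Knockdown of *HHEX* moved the set in no common direction. Over the 27 genes the median log2 fold change was -0.0133, against -0.00554 for all tested genes. By the same limma test, *IRF7*, *IFI27*, *IFI35* and *TAP1* rose and *IFIT5*, *HERC6*, *DTX3L* and *PARP14* fell, in this fit without correction for GC content. With the GC and length correction described below, 0 of the 27 were called, and the fold changes of all these genes were smaller. Each direction made up 14.8% of the 27, against 16.0% of all tested genes called higher and 16.9% called lower, so that the share called in either direction, 29.6%, was near that of all genes, 32.9%. At an unadjusted p under 0.05, 4 (14.8%) were higher and 5 (18.5%) lower, against 23.0% and 24.2%. The siHHEX libraries lay above both siNC libraries for 5 of 27 genes (18.5%, against 33.1%) and below for 10 (37.0%, against 33.8%).

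*IFI27* was at 0.467 and 0.718 FPKM in siNC and at 1.39, 1.85 and 3.03 FPKM in siHHEX 1, 2 and 3. It was also at 0.995 and 2.60 FPKM in siYAP/TAZ and at 0.796 FPKM in the library labelled siTEAD1/2/3/4, so that every knockdown library was above siNC. The ratio of siHHEX to siNC means was 3.53 (the log2 fold change was 0.93, SE 0.27, adjusted p = 0.0302), for a gene that was tested only because knockdown libraries passed the filter. Over the 24 members at 1 FPKM or more in a siNC library, 3 (12.5%) were called higher in siHHEX, against 16.1% of such genes. *IRF7* was at 2.45, 2.18 and 3.99 FPKM in siHHEX (log2 fold change 0.61, SE 0.21, adjusted p = 0.0472), and here too the knockdown libraries were all above the siNC values given above, with 2.99 FPKM in the library labelled siTEAD1/2/3/4. For *IFI35* the log2 fold change in siHHEX was 0.56 (SE 0.19, adjusted p = 0.0477).

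*TAP1*, the peptide transporter of class I antigen presentation, was at 10.5 and 12.05 FPKM in siNC and at 17.4, 15.9 and 16.4 FPKM in siHHEX (log2 fold change 0.52, SE 0.12, adjusted p = 0.0145). It was at 15.4 and 14.1 FPKM in siYAP/TAZ and 14.6 FPKM in the library labelled siTEAD1/2/3/4, again above siNC in all 6 knockdown libraries. *B2M*, the gene with the highest mean level in siNC, was at 113, 130 and 135 FPKM in siHHEX, below the 151 and 142 FPKM of siNC, and at 178 and 169 FPKM in siYAP/TAZ, above them. Neither difference of *B2M* from siNC passed the test (adjusted p = 0.141 and 0.230).

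Of the genes that fell, *IFIT5*, a member of the IFIT family and its most abundant one here, was at 7.65 and 7.02 FPKM in siNC and at 5.85, 4.95 and 4.53 FPKM in siHHEX (log2 fold change -0.45, SE 0.14, adjusted p = 0.0339). With the GC and length correction described below this change was lost (log2 fold change 0.015, adjusted p = 0.957). *IFIT5* was at 7.51 and 6.61 FPKM in siYAP/TAZ and at 4.36 FPKM in the library labelled siTEAD1/2/3/4. The other 3 belong to the ISG15 and ubiquitin group. *HERC6*, a HECT-type ubiquitin ligase, was at 1.62 and 1.58 FPKM in siNC and at 1.005, 1.13 and 0.685 FPKM in siHHEX (log2 fold change -0.43, SE 0.14, adjusted p = 0.0469). *DTX3L*, a ubiquitin ligase that works with *PARP9*, was at 2.71 and 2.64 FPKM in siNC and at 1.56, 2.00 and 1.66 FPKM in siHHEX (log2 fold change -0.43, SE 0.12, adjusted p = 0.0301). *PARP14*, a mono-ADP-ribosyltransferase, was at 2.55 and 2.25 FPKM in siNC and at 1.08, 1.87 and 1.34 FPKM in siHHEX (log2 fold change -0.50, SE 0.17, adjusted p = 0.0495). For each of these 4 genes the groups did not overlap.

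Other members were given no call against siNC in either knockdown. *OASL*, an OAS-like protein that binds RIG-I, ran from 1.01 FPKM (siHHEX 2) to 2.64 FPKM (siYAP/TAZ 1), with 1.37 and 1.48 FPKM in siNC. *BST2* (tetherin), which holds budding virus at the membrane, ran from 0.143 FPKM (siHHEX 2) to 1.06 FPKM (siYAP/TAZ 2). *USP18*, the protease that removes ISG15, was at 2.39 and 3.42 FPKM in siNC and between 2.08 and 4.01 FPKM elsewhere, and *HERC5*, the ligase that attaches ISG15, at 2.04 and 2.09 FPKM in siNC and between 0.996 and 2.69 FPKM elsewhere. *PARP9* was at 1.199 and 1.10 FPKM in siNC, 0.774, 1.07 and 0.772 FPKM in siHHEX and 1.80 and 1.49 FPKM in siYAP/TAZ. For *USP18* the siNC libraries overlapped both knockdowns, while for *HERC5* and *PARP9* both siNC values lay above siHHEX and below siYAP/TAZ.

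*ISG15*, the most abundant member of that group, was uneven in siHHEX, at 184, 135 and 230 FPKM against 136 and 149 FPKM in siNC, 146 and 161 FPKM in siYAP/TAZ and 205 FPKM in the library labelled siTEAD1/2/3/4. siHHEX 2 lay below both siNC values and the other 2 siHHEX libraries above both, and the log2 fold change of *ISG15* in siHHEX, 0.32 (SE 0.19), did not pass the test (adjusted p = 0.198). With the GC and length correction its direction turned (log2 fold change -0.30, adjusted p = 0.1605). *IRF1*, the transcription factor with the highest level in siNC, was at 4.30, 4.5 and 4.62 FPKM in siHHEX and 4.47 FPKM in the library labelled siTEAD1/2/3/4. *EIF2AK2* was at 4.49, 6.44 and 2.74 FPKM in siHHEX 1, 2 and 3. In siHHEX 3 it was past 2-fold below the siNC mean (log2 change -1.08), while *IFI27* (1.34) and *IRF7* (1.003) were past 2-fold above it, which is 3.7% lower and 7.41% higher against a background of 3.34% and 2.56%. With the GC and length correction none of the 3 was past 2-fold, and the log2 fold change of *EIF2AK2* over the siHHEX libraries went from -0.57 to -0.097. None of the 27 was past 2-fold in siHHEX 1 (background 0.937% higher, 2.23% lower) or in siHHEX 2 (background 0.656% higher, 0.59% lower).

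The siHHEX calls moved with GC content. The 4 genes that rose had a median transcript GC content of 58.5% and the 4 that fell 43.6%, against 50.7% for the 27 genes and 49.1% for all tested genes. Across all tested genes with an annotated transcript (10617 genes, which share a library and are not independent replicates), the change from siNC had a Spearman correlation with GC content of 0.679, 0.599 and 0.755 in siHHEX 1, 2 and 3, of 0.0603 and -0.0516 in siYAP/TAZ and of 0.298 in the library labelled siTEAD1/2/3/4. GC content and transcript length together accounted for 47.3, 34.3 and 57.3% of the variance of the change in siHHEX 1, 2 and 3. After each library was corrected for both, none of the 8 genes was called by limma and neither was any other of the 27, where 3.56% of all genes were called higher and 3.17% lower. At an unadjusted p under 0.05, 3 of the 27 were higher and 1 lower, against 13.8 and 13.0% of all genes. The corrected log2 fold changes were 0.41 for *IFI27*, 0.26 for *TAP1*, 0.175 for *IRF7*, 0.12 for *IFI35*, -0.22 for *HERC6*, -0.17 for *PARP14* and -0.12 for *DTX3L*, and *IFIT5* changed sign (0.015). With the same correction *SAMD9*, *IFIH1* and *IFI35* were still called in siYAP/TAZ (adjusted p = 0.0194, 0.0402 and 0.0239).

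**Figure D3:**
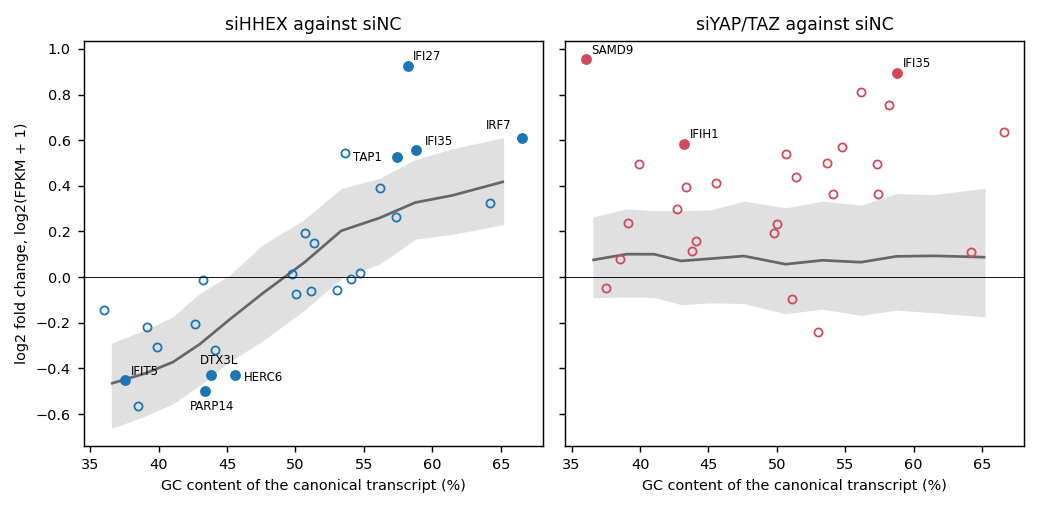
Log2 fold change of the 27 tested genes against the GC content of their transcripts, in siHHEX (left) and siYAP/TAZ (right) against siNC, with filled points for genes with an adjusted p under 0.05, a line for the median of all tested genes in 12 bins and a band from the lower to the upper quartile. In siHHEX most of the genes follow the rising line of all genes, while in siYAP/TAZ the line is flat and *SAMD9*, *IFIH1* and *IFI35* lie above the band.

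The siHHEX calls too were lost with 1 siNC library. Without siNC 1 or without siNC 2, 19 or 27 of all genes were called in place of 3518, and none of the 27 by limma, with 2 genes higher and 0 lower (12.8 and 13.3% of all genes), or 4 higher and 3 lower (14 and 14.8%), at an unadjusted p under 0.05. The fold changes kept their direction, with 0.36 and 0.75 for *IFI35*, 0.43 and 0.62 for *TAP1*, -0.41 and -0.44 for *DTX3L* and -0.42 and -0.44 for *HERC6*. Without siHHEX 3, 1 gene was called higher and 0 lower (12 and 11.5% of all genes), without siHHEX 1, 2 and 1 (10.7 and 9.08%), and without siHHEX 2, 5 and 5 (20.4 and 24.9%).

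The 2 knockdowns were then compared with each other. Relative to siYAP/TAZ, 10 of the 27 genes were lower in siHHEX (37.0%, against 25.9% of all tested genes) and 0 higher (against 13.5%), while 39.3% of all genes were called in either direction. At an unadjusted p under 0.05, 13 genes (48.1%) were lower and 0 higher, against 32.9% and 17.7%. Of the 24 members at 1 FPKM or more in a siNC library, which leaves out *IFIH1*, 9 (37.5%) were called lower, against 25.7% of such genes. The 10 were the sensors *DDX58* and *IFIH1*, the effectors *IFIT5* and *SAMD9*, 5 genes of the ISG15 and ubiquitin group (*HERC5*, *HERC6*, *PARP9*, *DTX3L* and *PARP14*) and *B2M*. Of these, *IFIT5* was called in 2 of 14 alternatives and changed sign with the GC and length correction (log2 fold change from -0.40 to 0.14), and *HERC5* was called in 1 of 14. The median log2 fold change was -0.374 for the 27 genes and -0.129 for all tested genes. The siHHEX libraries lay below both siYAP/TAZ libraries for 13 of 27 genes (48.1%, against 37.8%) and above for 2 (7.41%, against 23.0%).

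Before any correction for GC content, *SAMD9* had the largest log2 fold change of the 10, at -1.10 (SE 0.13, adjusted p = 0.0033). *PARP14*, at 2.96 and 4.05 FPKM in siYAP/TAZ, followed with -0.89 (SE 0.17, adjusted p = 0.00656), *HERC6*, at 2.18 and 2.76 FPKM in siYAP/TAZ, with -0.84 (SE 0.14, adjusted p = 0.00521), and *DDX58* with -0.80 (SE 0.14, adjusted p = 0.00539). In all 4 genes, the 3 siHHEX values lay below both siYAP/TAZ values. The GC and length correction brought these values to -0.47 for *SAMD9*, -0.42 for *PARP14*, -0.55 for *HERC6* and -0.28 for *DDX58*. It left 3 genes lower in siHHEX (3.35% of all genes were) and 0 higher (5.53%), with 8 of the 27 lower and 0 higher at an unadjusted p under 0.05 (12.4% and 15.5% of all genes). Of the 3, only *HERC6* (adjusted p = 0.0343) was among the 10, and the other 2 were *IFI35* (-0.68, adjusted p = 0.0349) and *IRF9* (-0.76, adjusted p = 0.0447). *PARP9* and *DTX3L* overlap at their starts on opposite strands, and since the use of strand in counting is not stated, their reads there cannot be told apart. Scaling to a common median changed the split of all calls from 1437 higher and 2763 lower to 2034 higher and 1841 lower, and left 8 of the 27 genes lower and 0 higher.

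A fold change over 2 with a p under 0.05, the criterion that the study's text names, was applied with the unadjusted p, since the text does not say which p is meant. On the log2(FPKM + 1) scale, 0 of the 27 genes passed in siHHEX against siNC (background 0.702% higher and 0.927% lower) or in siYAP/TAZ against siNC (background 1.14% higher and 0.431% lower). Between the knockdowns, *SAMD9* passed as lower in siHHEX, 1 of 27 (3.7%, against 1.28% of all tested genes), and 0 were higher (against 0.234%). These counts depended on the pseudocount. With a pseudocount of 0.1, which was tried after the data were seen, *IFI27* passed as higher in siHHEX (background 1.99%), *SAMD9*, *IFI35* and *IFI27* passed as higher in siYAP/TAZ (background 3.97%), and *SAMD9*, *DDX58*, *HERC6* and *PARP14* passed as lower in siHHEX than in siYAP/TAZ (background 5.28%).

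In the library labelled siTEAD1/2/3/4, which has no replicate, the 27 genes had a median log2 change of 0.178 from the siNC mean, against 0.0597 for all tested genes. The change was above 0 for 22 of 27 genes and for 58.9% of all tested genes. The 22 included *IFIH1*, *IFI27* and *BST2*, which were tested only through knockdown libraries. None was past 2-fold (background 0.412% higher and 0.478% lower). Past 1.5-fold, 2 genes were higher (7.41%, against 4.15%), *UBE2L6* at 10.03 FPKM (log2 change 0.69) and *IRF7* (0.68), and 1 was lower (3.7%, against 2.18%), *IFIT5* (-0.64).

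Library by library, the median of the set lay above that of all genes by 0.201 and 0.226 in siYAP/TAZ 1 and 2 and by 0.118 in the library labelled siTEAD1/2/3/4, or by 0.231, 0.331 and 0.270 with a pseudocount of 0.1. The median change of the 27 genes was 0.27 in siYAP/TAZ 1 and 0.32 in siYAP/TAZ 2, where the medians of all tested genes were 0.0689 and 0.094, and 24 of 27 genes were above the siNC mean in each (59.4 and 60.2% of all tested genes were). The 24 included *IFIH1*, *IFI27* and *BST2*, which were tested only through knockdown libraries and are no evidence of a direction. With no filter, the median of all 38 genes lay above that of all genes by 0.172 and 0.182 in siYAP/TAZ 1 and 2. In siHHEX the medians of the 27 were near or below 0. They were -0.0541, -0.105 and -0.00917 in siHHEX 1, 2 and 3, with 12, 8 and 13 genes above the siNC mean (48.1, 51.7 and 49.3% of all tested genes). Between the siNC libraries the median difference was 0.0321 (siNC 2 above siNC 1), and the 27 differences ran from -0.293 to 0.394, with none past 1.5-fold (background 0.15% in each direction) or 2-fold (background 0.00937% higher and 0.0468% lower). Scaling to a common median lowered the siYAP/TAZ medians to 0.187 and 0.206. The siYAP/TAZ and siHHEX values share the siNC libraries.

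**Figure D4:**
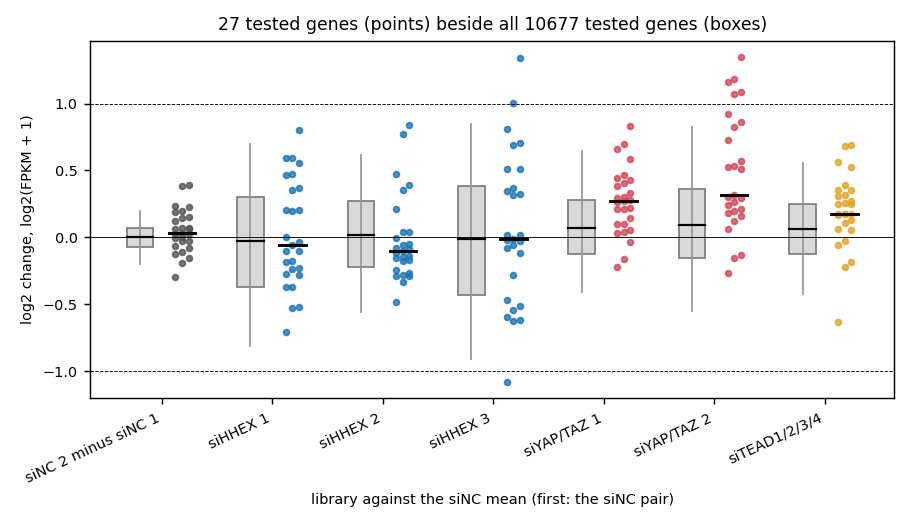
Log2 change of the 27 tested genes (points, with a bar at their median) from the siNC mean in each knockdown library, with the difference of the siNC libraries at the left. Grey boxes show the quartiles and median of all tested genes, thin lines their 5th to 95th percentiles, and dashed lines a change of 2-fold. The points of both siYAP/TAZ libraries lie mostly above 0, with medians of 0.27 and 0.32, and the 5 points above 2-fold in siYAP/TAZ 2 are the highest there.

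**Figure D5:**
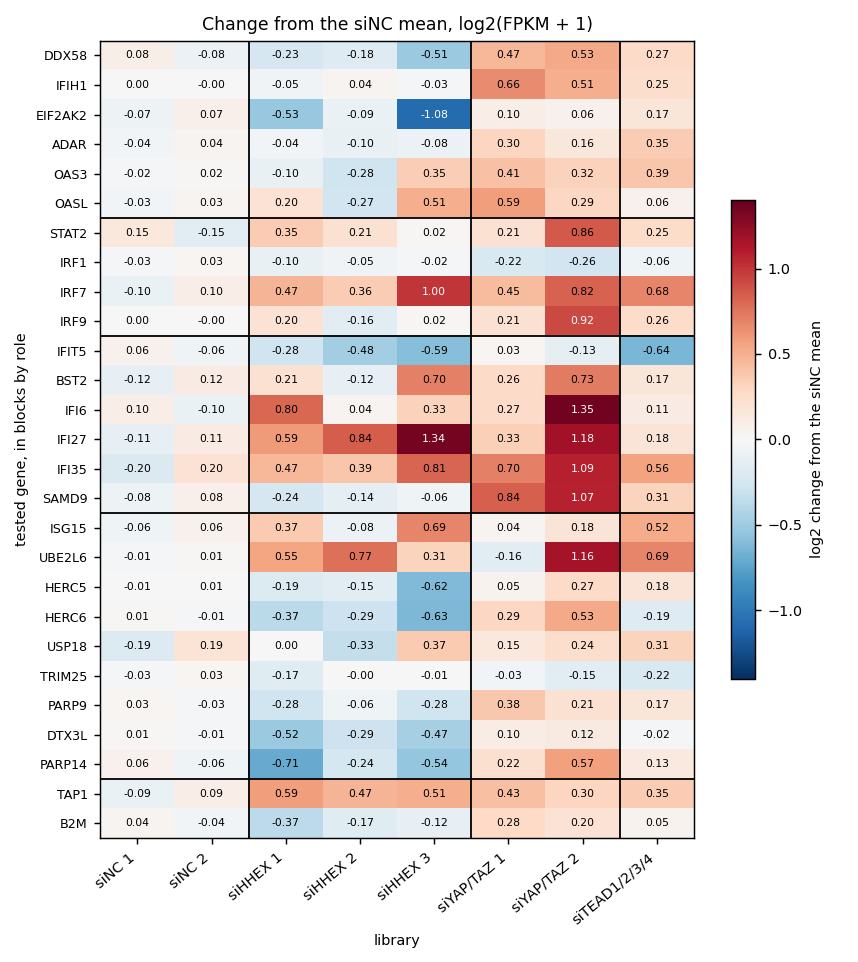
Log2 change of each of the 27 tested genes (rows, in blocks by role) from the siNC mean in each library (columns), in red where higher and blue where lower. *IFI6*, *IFI27*, *IFI35*, *IRF7*, *STAT2* and *TAP1* are above the siNC mean in all 6 knockdown libraries. *SAMD9*, *IFIH1* and *DDX58* are among the genes above it in siYAP/TAZ and in the library labelled siTEAD1/2/3/4.

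Upstream of the set, interferon transcripts were nearly absent from the listed values. Of 21 interferon genes, 20 were listed at 0 in all 8 libraries, including *IFNB1*, the 13 interferon-alpha genes, *IFNG* and the interferon-lambda genes. *IFNE*, an epithelial interferon, was at 0.126 and 0.0537 FPKM in siNC and reached 0.342 FPKM in siYAP/TAZ 2. The chemokine genes *CXCL10* and *CXCL11*, which respond strongly to interferon, were at 0 in siNC and at most at 0.184 and 0.0534 FPKM elsewhere. *MX2* and *RSAD2* were at or under 0.041 FPKM.

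The receptors and kinases that carry the signal were present. All 12 genes of that list were tested. *IFNAR1* was at 6.05 and 5.50 FPKM in siNC, *IFNAR2* at 4.44 and 3.38 FPKM, *JAK1* at 8.08 and 8.22 FPKM and *TYK2* at 7.42 and 7.92 FPKM.

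In siYAP/TAZ, 2 of the 12 genes of this list fell and 0 rose, where 2.13% of all tested genes fell and 6.15% rose. *SOCS3*, the feedback inhibitor of cytokine receptors, was at 7.53 and 7.92 FPKM in siNC and at 3.65 and 3.24 FPKM in siYAP/TAZ (log2 fold change -0.97, SE 0.19, adjusted p = 0.0219). *IFNGR2*, a chain of the interferon-gamma receptor, was at 16.9 FPKM in both siNC libraries and at 9.93 and 10.8 FPKM in siYAP/TAZ (log2 fold change -0.66, SE 0.16, adjusted p = 0.0372). *IFNGR2* fell in siHHEX as well (log2 fold change -0.44, adjusted p = 0.0407), where *TYK2* rose (0.35, adjusted p = 0.0427). These were the 1 lower and 1 higher of the 12 in siHHEX, against 16.9% and 16.0% of all tested genes. With the GC and length correction, *IFNGR2* was still called in both knockdowns (adjusted p = 0.0475 in siHHEX and 0.0238 in siYAP/TAZ) and *TYK2* was not (adjusted p = 0.720).

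Of 20 genes of RNA and DNA sensing upstream of the set, 13 were tested. *MAVS*, the adaptor of RIG-I and MDA5, was at 14.4 and 16.5 FPKM in siNC and at 15.9 to 25 FPKM in the other libraries. *STING1* was at 3.74 to 5.78 FPKM in all libraries, while *CGAS*, which makes its ligand, was above 0 in 2 libraries and at most at 0.141 FPKM. *TLR3*, the endosomal receptor for double-stranded RNA, was at 0.493 and 0.289 FPKM in siNC and at most at 0.614 FPKM, *TLR7* and *TLR9* were at most at 0.0231 and 0.0419 FPKM, and *TLR8* and *ZBP1* were listed at 0 throughout. No gene of the list was called in siYAP/TAZ, where 8.28% of all tested genes were, and 4 of 13 were called in siHHEX, near the background of 32.9%. In siHHEX, *IRF3* (0.66, adjusted p = 0.00885) and *TARBP2*, a partner of Dicer (0.57, adjusted p = 0.0121), rose and *DICER1* (-0.55, adjusted p = 0.043) and *TBK1* (-0.43, adjusted p = 0.0394) fell on the log2 scale. With the GC and length correction none of these 4 was called (adjusted p = 0.254, 0.418, 0.688 and 0.954).

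Of 36 further interferon-stimulated genes, 19 were tested. In siYAP/TAZ, 1 rose and 0 fell (6.15% and 2.13% of all tested genes). This was *RNF213*, a large ubiquitin ligase, at 1.22 and 1.19 FPKM in siNC and 2.06 and 2.63 FPKM in siYAP/TAZ (log2 fold change 0.60, SE 0.14, adjusted p = 0.0347), which was not called after median scaling (adjusted p = 0.0552) or GC and length correction (adjusted p = 0.127). The median over the 19 was 0.193, against 0.0816 for all tested genes. In siHHEX, 0 rose and 3 fell, *PARP12* (log2 fold change -0.75, adjusted p = 0.00602), *TDRD7* (-0.58, adjusted p = 0.0175) and *SP100* (-0.38, adjusted p = 0.0383), with a median of -0.0191 (all tested genes -0.00554). These 3 of 19 are near the background of 16.9% called lower, where 16.0% were called higher. Of these, *PARP12*, an ADP-ribosyltransferase of stress granules, was at 5.87 and 5.35 FPKM in siNC and at 2.71, 2.93 and 3.15 FPKM in siHHEX, and was the 1 of the 3 still called after the correction (log2 fold change -0.89, adjusted p = 0.00541).

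The membrane proteins *IFITM1*, *IFITM2* and *IFITM3*, which block virus entry and are near copies of each other, so that their reads may be split, did not pass the test against siNC in either knockdown. *IFITM3* was at 314 and 334 FPKM in siNC, 328, 383 and 451 FPKM in siHHEX and 264 and 254 FPKM in siYAP/TAZ. It was below both siNC libraries in siYAP/TAZ, where its log2 fold change was -0.32 (SE 0.14, adjusted p = 0.181), and between the knockdowns it was higher in siHHEX (0.57, SE 0.13, adjusted p = 0.0111, and 0.430 with the GC and length correction). Of the 19 further genes tested, it was the 1 called higher there (13.5% of all tested genes), while 7 were lower (25.9%). Of the 7, *RNF213* (-0.81) and *PARP12* (-0.41) were still called with the correction (adjusted p = 0.0241 and 0.0305). *IFITM2* was at 48.7 to 77.9 FPKM and *IFITM1* at 0.298 to 1.82 FPKM over the 8 libraries.

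Of 15 further genes of antigen presentation, 13 were tested, with 0 called in siYAP/TAZ (8.28% of all tested genes were) and 1 higher and 0 lower in siHHEX (16.0% and 16.9% of all tested genes). This was *PSMB10*, an immunoproteasome subunit (log2 fold change 0.65, adjusted p = 0.0115, and 0.506 with the GC and length correction). *HLA-B* was at 56.9 and 53.9 FPKM in siNC and *HLA-C* at 122 and 126 FPKM, with the caution that these genes are near copies of each other. Of 14 targets of NF-kB, the other arm of RNA sensing, 4 were tested. *RELB* fell in siYAP/TAZ, from 5.72 and 5.29 to 3.25 and 3.44 FPKM (log2 fold change -0.58, adjusted p = 0.0339), and 0 rose. Of all tested genes, 2.13% were called lower and 6.15% higher there. *NFKBIA*, the inhibitor that NF-kB induces, was at 13.5 to 17.7 FPKM in all libraries, and *TNF* and *CCL20* were listed at 0 throughout.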

How the data were processed

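RNA-seq of HCT116 cells was taken as FPKM, which the authors deposited as 1 value per gene and library. The submitters' processing notes name Trimmomatic 0.36, HISAT2 2.0.5, Cufflinks 2.2.1 and HTSeq 0.9.1, without saying which step used which. The build used for the RNA-seq is not given in the sources used here. The test that the study's text names needs counts, which FPKM are not, so limma 3.58.1 in R 4.3.3 was used on log2(FPKM + 1), with a mean-variance trend and 1 fit of 8 libraries in 4 groups. Adjusted p values are Benjamini-Hochberg over all 10677 tested genes and were called under 0.05. The single library labelled siTEAD1/2/3/4 was not tested.

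The 38 genes, the other lists, the tests and the alternatives were chosen with earlier results of these data known. For each member called against siNC or past 2-fold in a library, the values in siNC and in that group are given. The most abundant member of each role in siNC has its values in siNC, siHHEX and siYAP/TAZ given. The others are summarised. Groups came from the library titles. The same replicate number did not pair libraries (correlations of deviations from -0.0705 to 0.0215), so the main fit has no block. Gene positions and transcript GC content came from GENCODE annotation of GRCh38, matched by symbol and older symbols for 10617 tested genes (99.4%). The correction took off, in each library, a fit of 2 natural splines (4 degrees of freedom each) to GC content and log length of the transcript. Promoters came from RefSeq (GRCh38.p14). The scripts were tested on simulated data. Other steps used Python 3.11.15 with pandas 2.3.3 and numpy 2.4.6.

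Results were recomputed with no filter, a pseudocount of 0.1, only the groups compared, the replicate block, median scaling, the GC and length correction alone and with the block, each library left out, and the study's criterion. The ChIP-seq and qPCR data were not analysed here. Some genes of the lists are not reported here.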

Additional observations from a re-analysis of the deposited data

How the results depend on the processing

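Of 154 alternative values for the 11 calls against siNC, 79 kept their direction and side of the threshold, and of 140 for the 10 calls of siHHEX against siYAP/TAZ, 93 did. In all, 118 lost the call and 4 changed sign, all 4 for *IFIT5* with the GC and length correction (0.015 in siHHEX against siNC, 0.010 with the replicate block as well, and 0.14 with either against siYAP/TAZ). In siHHEX against siNC, the 4 higher and 4 lower genes became 1 and 0 with no filter, 2 and 0 with the replicate block, and 0 and 0 with the correction, the correction and block, or the study's criterion (1 and 0 by that criterion with a pseudocount of 0.1), and ran from 0 to 5 and from 0 to 5 when 1 library was left out. In siYAP/TAZ, the 3 higher genes became 5 with only the groups compared, 5 with the replicate block (with *IFI27* and *IRF7*), 1 with median scaling and 0 by the study's criterion (3 with a pseudocount of 0.1), and ran from 0 to 7 with 1 library left out. In siHHEX against siYAP/TAZ, the 10 lower genes became 3 with the correction, 1 with the correction and block and 1 by the study's criterion (4 with a pseudocount of 0.1), and ran from 4 to 10 with 1 library left out, and the 0 higher genes from 0 to 1. With no filter, 12 of the 38 genes were called lower in that comparison and 0 higher (16.2 and 7.85% of all genes).

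Over all genes, the siHHEX calls of 1712 higher and 1806 lower became 378 and 337 with the correction, 1023 and 1039 with the block, and 1142 and 1021 with no filter, and the siYAP/TAZ calls of 657 and 227 became 1220 and 539 with only the groups compared, 362 and 108 with no filter, and 51 and 41 without siYAP/TAZ 2. A pseudocount of 0.1 put more genes past 2-fold, with 1 higher and 1 lower in siHHEX 1, 1 higher in siHHEX 2, 2 lower in siHHEX 3, 2 higher in siYAP/TAZ 1 and 9 in siYAP/TAZ 2. The 5 of siYAP/TAZ 2 became 3 with median scaling and 3 with the correction, and the 2 higher and 1 lower of siHHEX 3 became 0 and 0 with the correction, and the 2 ran from 1 to 2 with 1 siNC library left out. The shares of all genes past 2-fold in these settings are not given here, so these counts have no background beside them.

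The median change of the tested genes was -0.103 in siHHEX 1, 0.312 and 0.441 in siYAP/TAZ 1 and 2 and 0.341 in the library labelled siTEAD1/2/3/4 with a pseudocount of 0.1. With no filter it was -0.00439, -0.0525 and 0.0434 in siHHEX 1, 2 and 3 and 0.212 and 0.254 in siYAP/TAZ. Median scaling gave 0.187, 0.206 and, for siTEAD1/2/3/4, 0.115, and the correction 0.0338 and -0.0499 in siHHEX 1 and 2 and 0.194 and 0.226 in siYAP/TAZ. With 1 siNC library left out it ran from -0.115 to -0.0545 in siHHEX 1, from 0.304 to 0.432 in siYAP/TAZ 2 and from 0.205 to 0.245 in siTEAD1/2/3/4. The medians stayed above 0 in siYAP/TAZ in these settings. The causes of these moves were not tested. FPKM give no depth, and the 11 genes under the filter were tested only in the fit with no filter. The study's criterion with a pseudocount of 0.1, and counts over genes at 1 FPKM in a siNC library, were added after seeing the data.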
